A study of Schmidtea mediterranea with 60 samples.

Results

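The change with time in drp1 RNAi animals was read from 6 whole-body libraries of the planarian Schmidtea mediterranea, 3 taken at 1dpa (1 day post amputation) and 3 taken at a time labelled homo, out of 60 libraries in the series. They were chosen from the labels alone, as every whole-body library with the genotype drp1, the treatment RNAi and either time. The labels do not explain homo. RNA interference (RNAi) degrades the transcript that matches a double-stranded RNA (dsRNA) given to the animal. The other whole-body libraries had dsRNA against egfp (a jellyfish gene, the control), opa1 or sod2, with 3 libraries at each time. All of these groups therefore had RNAi of some kind, and by their labels the homo animals of the drp1 groups had drp1 dsRNA as well. The comparison is one of time within a treated group, not of treated with untreated animals. The number of animals in a library, the dose and length of dsRNA feeding or injection, and the transcript left after RNAi are not given in the labels. Since nothing says that replicates came from separate animals, a p-value here reflects how these libraries scatter, and that scatter may be technical.

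Drp1 is a dynamin-related GTPase that assembles around mitochondria and divides them. Opa1 is the GTPase that fuses the inner mitochondrial membrane, and sod2 is the superoxide dismutase of the mitochondrial matrix. Planarians regrow lost body parts from a pool of dividing adult stem cells called neoblasts, and amputation sets off a wound response that precedes the building of new tissue.

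Features are rows of the deposited table, each with an identifier that begins with SMED30. The files pair 0 of these identifiers with a gene name, so the features could not be sorted into ligands, receptors or enzymes, and no cell type marker could be looked up to check the labelled tissue. They are described here by their level, their direction and their behaviour in the libraries with other RNAi. In bulk RNA from whole bodies, fewer cells of a type and less RNA per cell cannot be told apart.

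The 6 libraries summed to between 10611093 and 13702093 estimated counts and had 28385 to 29769 features above 0, beside 11529725 to 14328908 counts in the other whole-body libraries. Composition differed between the times. The 10 most abundant features took 10% to 10.1% of the counts at homo and 7.99% to 8.53% at 1dpa, and the TMM scaling factors, which correct for such shifts, were 0.873 to 0.921 at homo and 1.02 to 1.08 at 1dpa. Replicates had a Pearson correlation across features of 0.9912 to 0.9923 at homo and 0.9878 to 0.9902 at 1dpa, on log2(CPM + 1). CPM is the count relative to library size after TMM scaling, per 1e+06 counts. On the first principal component, the drp1 homo libraries stood at 44, 34.1 and 38.1 and the 1dpa libraries at -7.98, -28.9 and -9.21. Replicate 2 at 1dpa was thus farther from the homo libraries than the other 2 were.

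**Figure D1:**
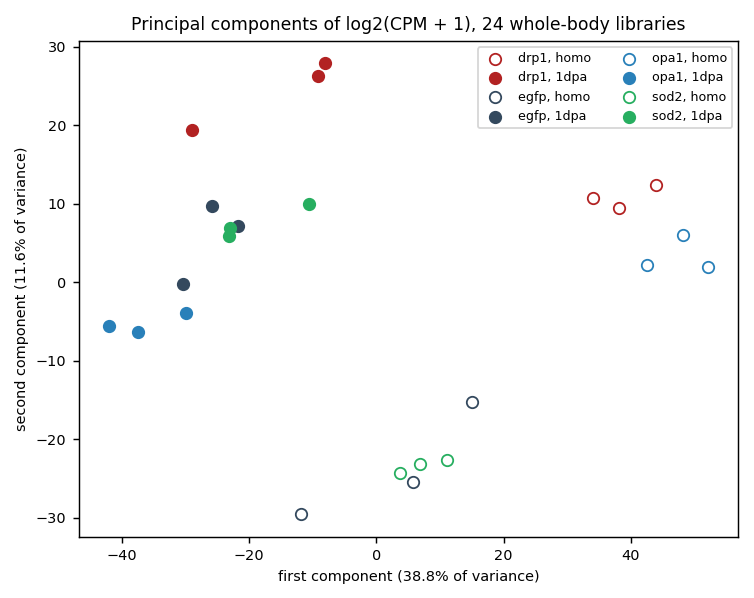
Principal components of log2(CPM + 1) in the 24 whole-body libraries, with the share of variance on each axis (38.8% and 11.6%). Open circles are homo and filled circles 1dpa, coloured by RNAi, 1 circle per library. The drp1 homo libraries (34.1 to 44 on the first axis) lie near those with opa1 RNAi, and the 3 drp1 libraries at 1dpa have the highest values on the second axis (19.4 to 27.9).

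One feature, SMED30027152, had appeared in earlier results of these data as low wherever drp1 dsRNA was given, and was chosen for that, so its low level here is a description and no check of the knockdown. Its CPM was 6.30, 6.97 and 6.09 in the homo libraries and 7.16, 8.78 and 9.78 at 1dpa. In egfp controls it was 96.7, 102 and 115 at homo and 126, 132 and 123 at 1dpa. All 6 drp1 libraries were under all 6 control libraries, as the choice of the feature fixes. With drp1 RNAi it was higher at 1dpa by 0.42 on the log2 scale (SE 0.12, edgeR adjusted p = 0.00937). That call was lost under 3 of 17 alternatives. Among them were the fit without the third 1dpa library (edgeR adjusted p = 0.109) and the fit of only the drp1 libraries (0.0724). In the controls the change was 0.28 (adjusted p = 0.00709), and the difference between the changes was 0.14 (SE 0.14, adjusted p = 0.681). Whether this feature is drp1 itself cannot be said from the files.

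Between homo and 1dpa, 7389 of 22889 features tested changed with drp1 RNAi, which is 32.3%, by edgeR's quasi-likelihood test at a Benjamini-Hochberg adjusted p under 0.05. The directions were close to even, with 3683 higher at 1dpa (16.1%) and 3706 lower (16.2%). Sizes were not even. Over 2-fold, 875 features were higher (3.82%) and 410 lower (1.79%), and over 4-fold the counts were 137 and 35. Called rises had a median of 1.57-fold, with the middle of the list from 1.36-fold to 1.96-fold, and called falls a median of 1.40-fold, from 1.28-fold to 1.62-fold. All 3 libraries of one time lay above all 3 of the other in 9756 features tested (42.6%), and among those called this held for 3474 rises and 3533 falls.

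Which direction prevailed differed with level. In the quartile of features with the highest mean CPM, 60.3% were called, 1192 higher and 2260 lower. In the next quartile 42.6% were called, 1467 higher and 970 lower. The 2 lower quartiles had 744 rises against 353 falls and 280 rises against 123 falls, with 19.2% and 7.04% called. The median called change was 1.72 on the log2 scale in the lowest quartile and 0.425 in the highest. In the lowest quartile, 279 of the 280 called rises and 120 of the 123 called falls were over 2-fold. Small changes at few counts seldom reach the threshold, so these medians do not rank the quartiles by size of change. The split was also near even with RLE factors (3516 higher and 3881 lower), upper-quartile factors (3594 and 3852) and DESeq2 (3277 and 3675), but not on TPM. On the deposited TPM values, which give each feature's share of a library after dividing by its length, the median of all features moved to 0.281 on the log2 scale, from 0.0254, and 8145 of 9065 calls (89.9%) were higher at 1dpa. With each library's TPM median subtracted, 2211 of 6424 calls (34.4%) were higher.

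Several of the largest rises began near 0 at homo, though not all. They were taken among features with a mean log2 CPM of at least 1 over the whole-body libraries. SMED30002813 had CPM of 5.21, 5.13 and 5.04 at homo and 124, 97.4 and 100 at 1dpa, so the 2 times were far apart and the libraries of each close together. That is a rise of 4.38 on the log2 scale, or 20.9-fold (SE 0.19, edgeR adjusted p = 1.86e-16). Among the 10 largest rises it had the smallest SE. SMED30013580 went from 0.731, 1.95 and 1.30 CPM to 36.0, 38.6 and 35.9, with all 3 libraries at 1dpa alike (28.0-fold, SE 0.32 on the log2 scale, edgeR adjusted p = 2.74e-12). SMED30022734 had 0, 0.615 and 0.325 CPM at homo and 12.1, 11.3 and 15.0 at 1dpa. SMED30016016 had 0.274, 0.410 and 0.163 at homo and 9.30, 8.16 and 13.7 at 1dpa. The fitted folds of these 2 features were 40.9 and 36.7, and both lean on homo libraries with few counts.

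In SMED30004187, SMED30029247 and SMED30018088 the 1dpa libraries were less alike. SMED30004187 had 0, 0.513 and 0 CPM at homo and 5.76, 13.9 and 14.8 at 1dpa. SMED30029247 had 0.0913, 1.03 and 0.244 at homo and 10.2, 21.8 and 23.4 at 1dpa. In both, replicate 1 at 1dpa was the lowest of its group. SMED30018088 had 1.28, 1.13 and 0.975 CPM at homo and 12.1, 33.1 and 14.3 at 1dpa, with replicate 2 the highest (17.6-fold, SE 0.37 on the log2 scale, edgeR adjusted p = 1.02e-09). SMED30010415, also highest in replicate 2 at 1dpa, had 0.457, 0.615 and 0.488 CPM at homo and 6.34, 15.2 and 7.14 at 1dpa. SMED30020397 had 1.46, 1.03 and 0 CPM at homo against 20.4, 13.6 and 21.4 at 1dpa.

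The largest fitted change of the 10 belonged to SMED30001049, whose call was also the least secure. Its counts rounded to 0 in every homo library and its CPM was 0.988, 1.23 and 1.76 at 1dpa. Against a floor of 3 counts per homo library (0.273 CPM) it was at least 4.87-fold higher. The edgeR adjusted p was 0.0224, and the call was lost under 7 of 17 alternatives, among them without any 1 of the 3 homo libraries (adjusted p = 0.0665, 0.0553 and 0.0676) and without replicate 3 at 1dpa (0.0519). Its estimated counts were fractions, not whole numbers, in all 21 whole-body libraries where it was above 0, as kallisto gives when it divides reads between similar sequences.

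Of these 10 rises, 9 were also called higher between the same times in egfp controls, 9 with opa1 RNAi and 9 with sod2 RNAi, in libraries that share no sample with the drp1 ones. Over all features tested the shares called higher were 9.83%, 27.2% and 8.78%. In each case the exception was SMED30001049, which had 0, 2.68 and 2.08 CPM in the control homo libraries and 1.96, 2.16 and 4.18 in the control 1dpa libraries. The minimum level used to choose the 10 was a mean over all whole-body libraries, those with egfp, opa1 and sod2 RNAi included. The choice thus partly favoured shared rises, and the shares over all features tested are not matched for it. Only 1 of the 10, SMED30018088, had a change that differed from the controls' at an adjusted p under 0.05, beside 3.92% of all features tested. SMED30002813 rose by 4.38 with drp1 RNAi and by 4.52 in controls on the log2 scale, a difference of -0.14 (SE 0.32, edgeR adjusted p = 0.877). It rose by 3.33 with opa1 RNAi and by 5.91 with sod2 RNAi, and the drp1 change differed from both, by 1.05 (SE 0.32, adjusted p = 0.0462) and -1.52 (SE 0.38, adjusted p = 0.00681).

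At the same minimum level, the 10 largest falls were smaller than the 10 largest rises. SMED30035264 had CPM of 41.5, 51.3 and 43.1 at homo and 8.89, 9.55 and 11 at 1dpa, 4.61-fold lower (SE 0.17 on the log2 scale, edgeR adjusted p = 3.23e-11). SMED30009537 went from 8.04, 6.05 and 7.15 to 1.15, 0.154 and 1.12, with the second 1dpa library the lowest (8.77-fold lower, SE 0.38 on the log2 scale, edgeR adjusted p = 1.31e-07). Both fell by similar amounts in egfp controls, by 2.27 and 3.79 on the log2 scale against 2.20 and 3.13 with drp1 RNAi.

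SMED30020266 and SMED30022886 had the highest TPM of the 10 falls, and in both of them replicate 1 at 1dpa stayed highest. SMED30020266 had 140, 133 and 123 CPM at homo and 46.4, 25.9 and 19.1 at 1dpa. SMED30022886 had 428, 370 and 373 at homo and 139, 79.1 and 63.0 at 1dpa. They fell 4.34-fold and 4.16-fold (SE 0.18 and 0.17 on the log2 scale, edgeR adjusted p = 3.27e-10 and 2.96e-10). In egfp controls the same features fell by 0.72 and 1.14 on the log2 scale, so the falls with drp1 RNAi were greater by 1.40 (SE 0.24, adjusted p = 0.00112) and 0.92 (SE 0.23, adjusted p = 0.0225). With sod2 RNAi neither change was called (adjusted p = 0.998 and 0.414). With opa1 RNAi both fell, by 1.72 and 1.70 on the log2 scale, with no called difference from the drp1 falls (edgeR adjusted p = 0.352 and 0.37). Both features were chosen as large drp1 falls, and that choice favours a difference from other groups.

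Among the low-level falls, SMED30015244 had 7.40, 3.90 and 6.34 CPM at homo and 0.494, 1.23 and 1.44 at 1dpa, SMED30021814 had 6.39, 2.56 and 4.96 against 0.905, 0.539 and 0.641, and SMED30005635 had 11.2, 7.07 and 6.91 against 2.14, 1.23 and 2.08. No overlap between times was a condition for listing these 3. Each fell more than in controls (differences of -1.39, -1.84 and -1.51 on the log2 scale, edgeR adjusted p = 0.0482, 0.0366 and 0.00936). They were chosen as large drp1 falls, and that choice favours such differences. SMED30025582 (7.67, 5.43 and 5.28 to 1.48, 1.15 and 1.44 CPM) and SMED30004891 (15.1, 22.2 and 21.0 to 4.12, 3.93 and 5.05) fell 4.49-fold and 4.44-fold, with no called difference from controls. SMED30025976 rests on 1 library. Its homo CPM was 2.01, 2.36 and 10.5, its 1dpa CPM 1.15, 0.385 and 0.722, and without homo replicate 3 the fall was 1.53 on the log2 scale with an adjusted p of 0.106.

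**Figure D2:**
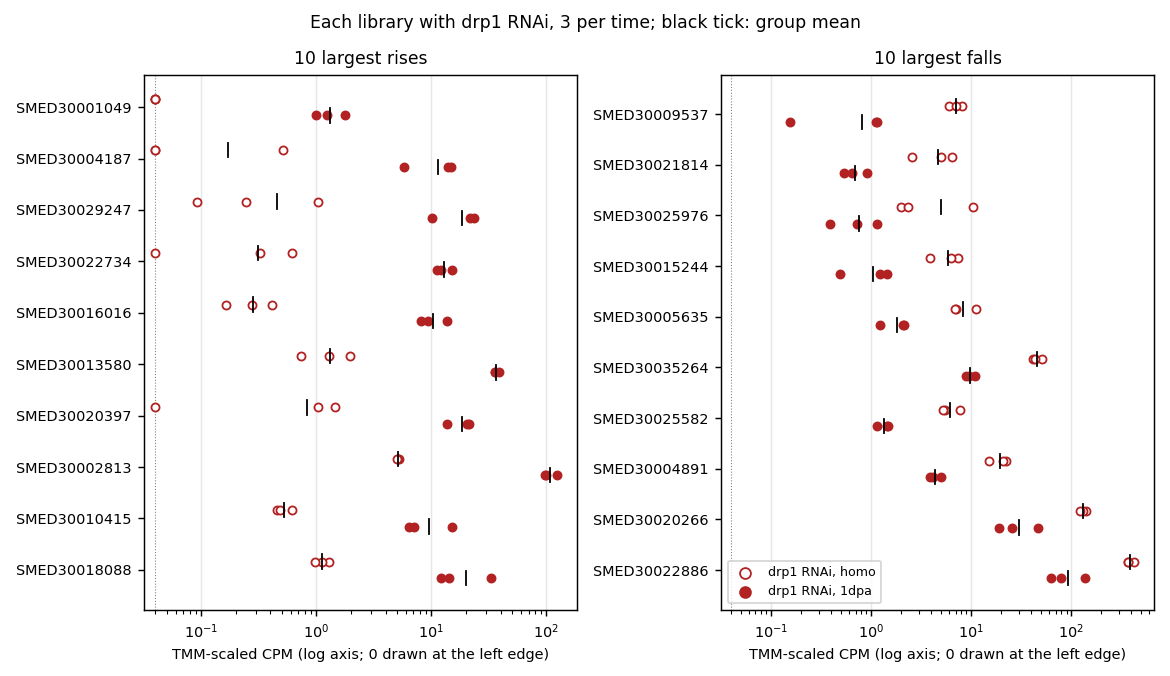
CPM of the 10 largest rises and 10 largest falls in each drp1 RNAi library on a log axis, homo open and 1dpa filled, with a black tick at the mean of 3 libraries and values of 0 drawn at the left edge. No feature shown has overlapping times, which was a condition for being listed. Several rises begin at or near 0, while the falls end above 0, as for SMED30022886 (63.0 to 139 CPM at 1dpa).

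A few features were detected at 1 time only. These were picked out after their values were seen. SMED30024477 had 2.83, 1.23 and 2.84 CPM at homo and 0 in all 3 libraries at 1dpa (edgeR adjusted p = 2.66e-07), and it was called lower with egfp, opa1 and sod2 RNAi as well. SMED30003967, the other called feature at 0 in every 1dpa library, had 0 in 1 homo library and under 1 CPM in the rest. On the other side, 7 features at 0 in every homo library were called higher, and apart from SMED30001049 their highest value at 1dpa was 1.00 CPM, in SMED30021631. At such levels only a handful of reads separates the times.

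By TPM, the scale on which levels of different features can be set side by side, the 10 most abundant features over the 6 libraries included 6 called lower and 0 called higher by edgeR. In the highest quartile by CPM as a whole, 39.5% were called lower and 20.8% higher. SMED30028565 fell from 33200, 29400 and 28700 TPM to 16000, 14000 and 12100, with no overlap. On CPM, where it went from 4840, 3890 and 3960 to 1870, 1450 and 1380, the fall was 2.70-fold (SE 0.16 on the log2 scale, edgeR adjusted p = 2.8e-08). SMED30013459 had 21900, 22700 and 22000 TPM at homo, nearly equal, and 19200, 14900 and 11200 at 1dpa, spread widely. SMED30009757 likewise spread at 1dpa, from 12300, 13900 and 11700 TPM to 8190, 6400 and 4480. On CPM these 2 fell 1.83-fold and 2.47-fold (edgeR adjusted p = 0.000179 and 1.89e-06). In both, replicate 1 was the highest at 1dpa and replicate 3 the lowest.

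SMED30010350 had 13300, 13200 and 12800 TPM at homo and 10900, 9300 and 10700 at 1dpa, and SMED30007704 had 11300, 10900 and 11100 against 8570, 8920 and 8690. Their falls on CPM were 0.68 and 0.70 on the log2 scale (SE 0.13 and 0.07, edgeR adjusted p = 9.4e-05 and 1.02e-08). On TPM, before any centring, both changes were -0.35 on the log2 scale and still called. The estimated counts of SMED30010350 were fractions in 23 of 24 libraries.

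The 5 most abundant rises stood lower on the TPM scale. SMED30010977 went from 2190, 2410 and 2440 TPM to 3490, 3850 and 3770, and SMED30003676 from 611, 538 and 638 to 2320, 2000 and 2670. The second of these was the larger change, 3.03-fold on CPM (SE 0.26 on the log2 scale, edgeR adjusted p = 1.31e-05). It also rose in egfp, opa1 and sod2 RNAi, by 1.86, 1.98 and 2.32 on the log2 scale. SMED30035193 rose from 2460, 2490 and 2450 CPM to 3600, 4120 and 3710 (1.54-fold, edgeR adjusted p = 3.6e-07). SMED30027378 had 1740, 1700 and 1720 CPM at homo and 1970, 2020 and 1980 at 1dpa, a rise of only 1.16-fold whose libraries did not overlap (SE 0.06 on the log2 scale, edgeR adjusted p = 0.00434). SMED30011476 rose 1.22-fold, from 254, 235 and 246 CPM to 283, 276 and 335, and lost its call without 1dpa replicate 3 (adjusted p = 0.165), without homo replicate 2 (0.0778) and on median-centred TPM (0.208).

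The same 2 times with egfp dsRNA gave 4285 called features (18.7%), with opa1 RNAi 12182 (53.2%) and with sod2 RNAi 4174 (18.2%). The drp1 count therefore lay between those of the controls and of opa1 RNAi, although counts of calls at a threshold are not a test of a difference. None of these time changes shares a library with the drp1 one. Of features higher with drp1 RNAi, 1588 were higher in controls as well, which is 43.1% of the drp1 list and 70.6% of the control list. Of those lower, 1423 were shared, 38.4% and 69.9% of the 2 lists. Opposite calls were few, with 5 features higher with drp1 RNAi and lower in controls and 52 the reverse. With opa1 RNAi, 2942 rises and 3272 falls were shared, 79.9% and 88.3% of the drp1 lists and 47.2% and 55.0% of the opa1 lists. With sod2 RNAi, 1069 rises and 1196 falls were shared, 29.0% and 32.3% of the drp1 lists, and 241 features were lower with drp1 RNAi and higher with sod2 RNAi.

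Across the 22889 features the Pearson correlation of the drp1 log2 fold change with that of controls was 0.449, with opa1 RNAi 0.642 and with sod2 RNAi 0.356. Spearman's rho was 0.471, 0.69 and 0.354. Features are not independent replicates, and all 24 libraries were scaled together, so these values only describe the libraries.

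**Figure D3:**
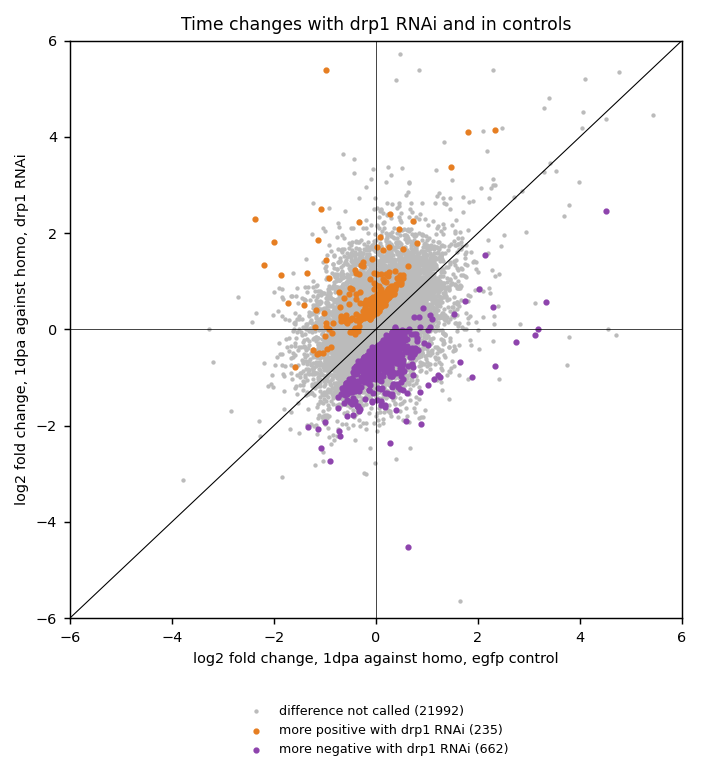
Log2 fold change from homo to 1dpa for each feature tested, in egfp controls (horizontal) and with drp1 RNAi (vertical), with the line of equality. Orange marks the 235 features and purple the 662 features whose change differed at an adjusted p under 0.05, and 9 features lie outside the plotted range of 6 in either direction. The purple points lie mostly under the horizontal axis, where the drp1 change is a fall.

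Tested directly, the change with drp1 RNAi differed from the control change in 897 features (3.92%), 235 with a more positive and 662 with a more negative change. Such a difference can arise from levels at homo, at 1dpa or at both. In the same fit, drp1 RNAi and controls differed in 5555 features (24.3%) at homo and in 1645 (7.19%) at 1dpa. These are counts of calls, and the 2 times were not tested against each other in them. Most of the 662 were falls with drp1 RNAi that had no called counterpart in controls (419 features). A further 97 fell in both and fell more with drp1 RNAi, 52 fell with drp1 RNAi and rose in controls, and 82 rose in controls with no call in drp1 RNAi. Of the 235, 148 rose with drp1 RNAi with no call in controls, 33 rose in both and 39 fell in controls with no call in drp1 RNAi. Of 4321 features called with drp1 RNAi and not in controls, only 567 (13.1%) had a called difference. The lead of negative over positive differences turned only on uncentred TPM among the scalings tried. It was 632 to 234 with RLE factors, 782 to 311 with DESeq2 and 537 to 321 with upper-quartile factors. On TPM, whose median difference was 0.244 on the log2 scale, 2109 of 2346 differences were positive, and on median-centred TPM 184 were negative and 54 positive. The count also depends on single libraries. It was 366 without egfp homo replicate 3, 398 without drp1 homo replicate 1, 424 without drp1 1dpa replicate 2, 523 and 524 without egfp 1dpa replicate 1 or 3, and 1440 without egfp homo replicate 1.

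Among features with a mean log2 CPM of at least 1, the most positive difference belonged to SMED30015120. In controls its CPM was 14.2, 9.43 and 23.1 at homo and 57.8, 53.6 and 53.2 at 1dpa, and with drp1 RNAi it was 4.38, 5.02 and 3.74 at homo and 71.4, 78.3 and 73.2 at 1dpa. The drp1 libraries were under all control libraries at homo and above all of them at 1dpa. The rise was 17.1-fold with drp1 RNAi, and the difference from controls was 2.28 on the log2 scale (SE 0.34, edgeR adjusted p = 0.000189), called under all 23 alternatives tried. SMED30003738 showed another arrangement, with overlapping homo levels (5.71, 4.33 and 8.23 CPM in controls, 5.12, 3.59 and 5.04 with drp1 RNAi) and 1dpa levels that did not overlap (17.8, 14.9 and 18.1 against 44.5, 34.0 and 65.9). Its difference was 1.91 (SE 0.41, edgeR adjusted p = 0.007), lost without egfp homo replicate 3 (adjusted p = 0.056). With opa1 RNAi SMED30015120 and SMED30003738 rose 7.8-fold and 8.22-fold, and with sod2 RNAi 15.1-fold and 8.17-fold. Of the 5 most positive differences from controls, 0 were also called against opa1 RNAi and 1 against sod2 RNAi. Among all features tested those shares were 5.51% and 11.5%.

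In SMED30035236, SMED30018088 and SMED30029896 the drp1 libraries were low at homo and near the controls at 1dpa. SMED30018088 had 4.02, 5.19 and 3.41 CPM in control homo libraries against 1.28, 1.13 and 0.975 with drp1 RNAi, while at 1dpa the controls had 27.9, 17.1 and 19.1 and the drp1 libraries 12.1, 33.1 and 14.3. SMED30035236 had 0.365, 0.615 and 0.650 CPM at homo and 2.88, 1.62 and 1.76 at 1dpa with drp1 RNAi, and between 1.21 and 3.32 in all 6 control libraries. SMED30029896 had 1.10, 1.13 and 0.731 against 2.55, 3.54 and 3.53 with drp1 RNAi, and 1.45 to 3.32 in controls. The differences were 1.83, 1.79 and 1.68 (edgeR adjusted p = 0.037, 0.0454 and 0.0372). All 3 lie near the threshold, and 11 of 22, 10 of 23 and 12 of 22 alternatives lost the call, in which leaving out most single libraries was enough.

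SMED30009757, one of the abundant falls, also had one of the 5 most negative differences and the one with the smallest adjusted p. Controls had 1560, 1020 and 806 CPM at homo and 2260, 1820 and 2080 at 1dpa, a rise, while drp1 libraries had 2090, 2170 and 1890 at homo and 1120, 775 and 595 at 1dpa. The times were apart and in opposite order in the 2 sets. The difference was -2.17 (SE 0.26, edgeR adjusted p = 2.4e-05), called under all 23 alternatives. With opa1 RNAi it fell, from 1320, 959 and 850 to 222, 265 and 322, and with sod2 RNAi it rose, from 550, 535 and 455 to 1460, 1210 and 1370. SMED30008414 fell with drp1 RNAi from 385, 126 and 126 CPM to 75.8, 46.3 and 40.3, with homo replicate 1 far above the other 2, and rose in controls from 75.3, 54.6 and 58.6 to 130, 93.5 and 127 (difference -2.87, SE 0.37, edgeR adjusted p = 4.8e-05).

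SMED30025753 had 897, 418 and 398 CPM at homo and 319, 239 and 281 at 1dpa with drp1 RNAi, against 296, 265 and 275 and then 947, 426 and 464 in controls. One library in each set, drp1 homo replicate 1 and egfp 1dpa replicate 1, stood well above its group. The difference was -2.17 (SE 0.48, edgeR adjusted p = 0.00798), and without drp1 homo replicate 1 it was -1.69 with an adjusted p of 0.0537. SMED30009224 and SMED30021776 had no called change with drp1 RNAi (edgeR adjusted p = 0.988 and 0.903) and a called rise in the controls. SMED30009224 had 0.241, 0.346 and 1.16 CPM at homo and 3.34, 6.13 and 6.53 at 1dpa in controls, against 0.847 to 3.49 in all 6 drp1 libraries (difference -3.16, edgeR adjusted p = 0.00704). SMED30021776 was 1.81 to 2.44 in the drp1 libraries, while the control 1dpa libraries had 5.45, 21.6 and 1.61. Without the control library at 21.6, its difference was -1.81 with an adjusted p of 0.0591. Of the 5 most negative differences from controls, 0 were also called against opa1 RNAi and 2 against sod2 RNAi. Among all features tested those shares were 5.51% and 11.5%.

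Among the 57 features called in opposite directions in drp1 RNAi and controls, the 3 with the firmest pair of calls all fell with drp1 RNAi. SMED30003372 had 1120, 927 and 903 CPM at homo and 729, 556 and 515 at 1dpa, and 392, 283 and 233 against 608, 414 and 461 in controls. SMED30026531 had 96.5, 75.2 and 66.8 against 60.5, 49.4 and 51.6, and 38.9, 31.4 and 36.3 against 62.4, 54.6 and 58.4 in controls. SMED30025110 had 85.9, 89.4 and 79.3 against 65.3, 60.9 and 53.5, and 59.4, 49.3 and 43.1 against 71.8, 69.1 and 69.9 in controls. In each of the 3, the drp1 homo libraries were above all control homo libraries, and the drp1 fall brought them near or under the level that the controls reached by rising. The differences were -1.42 (SE 0.20), -1.28 (SE 0.15) and -0.97 (SE 0.13), with edgeR adjusted p of 0.000125, 2.4e-05 and 4.8e-05, and no alternative lost one. All 3 fell with opa1 RNAi, by 0.98, 0.79 and 1.21 on the log2 scale. With sod2 RNAi SMED30003372 and SMED30025110 rose (1.22 and 0.70) and SMED30026531 fell by 0.50.

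The 5 features that rose with drp1 RNAi and fell in controls, named after their values were seen, were SMED30001680, SMED30011476, SMED30016577, SMED30034357 and SMED30035541. Their changes with drp1 RNAi were small in all but the last, at 0.26, 0.28, 0.66, 0.28 and 2.29 on the log2 scale. SMED30001680 had 71.6, 71.3 and 66.1 CPM against 85.8, 85.5 and 78.8 with drp1 RNAi, and 104, 106 and 99.1 against 84.7, 89.5 and 89.5 in controls. Its drp1 libraries thus rose towards the level to which the controls fell. SMED30035541 never exceeded 0.665 CPM in these 12 libraries.

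**Figure D4:**
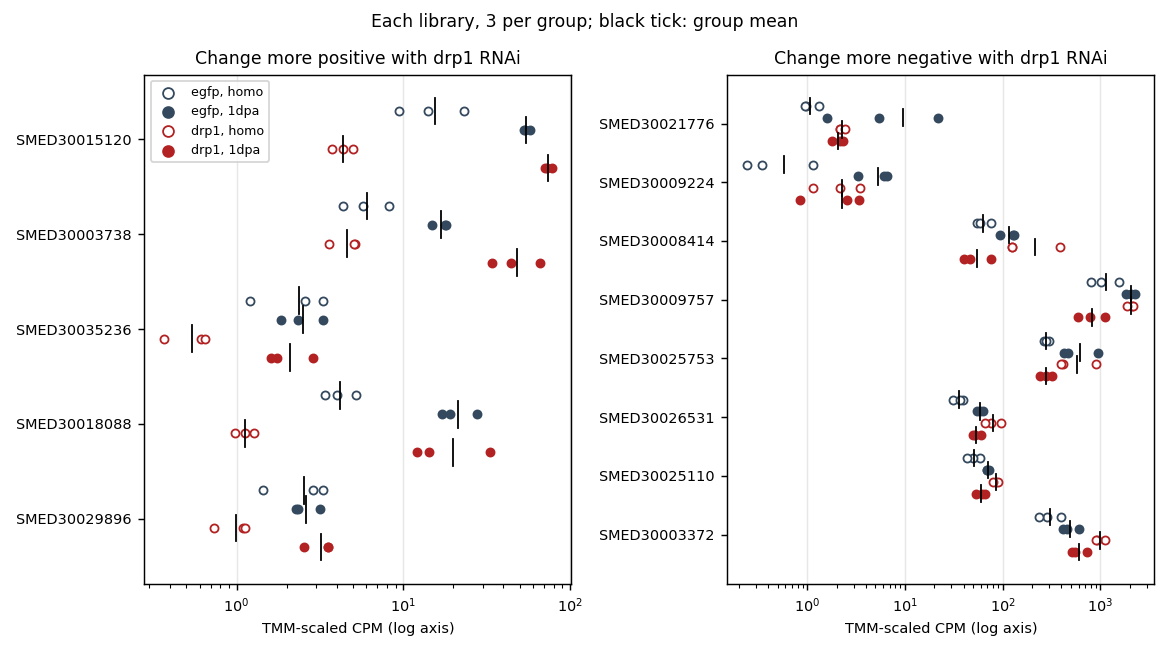
CPM in each library, on a log axis, for features whose change with drp1 RNAi was more positive (left) or more negative (right) than in egfp controls, with controls in grey-blue, drp1 RNAi in red, homo open, 1dpa filled and a black tick at each mean of 3. SMED30009757 and the 3 lowest features on the right rise in controls and fall with drp1 RNAi. For SMED30021776 a single control library at 21.6 CPM stands apart.

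Against opa1 RNAi the drp1 change differed in 1261 features (5.51%), 818 more positive and 443 more negative. Of the 818, 469 fell in both and fell less with drp1 RNAi, and 293 fell with opa1 RNAi with no call in drp1 RNAi. Of the 443, 271 rose with opa1 RNAi with no call in drp1 RNAi, and 96 rose in both and rose less with drp1 RNAi. A further 34 fell with drp1 RNAi with no call in opa1 RNAi. Opposite calls were 10 and 21 features. The count was 484, 708 and 2184 without drp1 1dpa replicates 1, 3 and 2, 547 without drp1 homo replicate 2, 550 and 696 without opa1 1dpa replicates 2 and 1, and 762 without opa1 homo replicate 1.

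SMED30007040 was one of the 10 features with a drp1 rise and an opa1 fall. It had 6.21, 7.89 and 5.69 CPM at homo and 14.9, 11.2 and 8.02 at 1dpa with drp1 RNAi, and 5.71, 7.23 and 7.86 against 2.27, 2.35 and 2.47 with opa1 RNAi. The homo levels overlapped and the 1dpa levels did not (difference 2.34, SE 0.36, edgeR adjusted p = 0.00048). SMED30010932 fell with opa1 RNAi from 24.9, 26.4 and 18.5 to 3.68, 5.15 and 5.06, while the drp1 libraries overlapped between times, at 21.5, 20 and 11.1 and then 16, 17.4 and 8.50 (difference 2.01, SE 0.36, edgeR adjusted p = 0.00224). The 2 most negative differences at this minimum level, SMED30018972 and SMED30025990, were -3.41 and -2.95 (edgeR adjusted p = 0.0211 and 0.0395). Both arise from opa1 homo libraries of which 2 of 3 were at 0, and both were lost with DESeq2 (adjusted p = 0.133 and 0.192) and without several of the single libraries. The estimated counts of SMED30010932 were fractions in 20 of the 24 whole-body libraries. Those of SMED30018972 and SMED30025990 were fractions in 16 and 19 of the 23 libraries where each was above 0.

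Against sod2 RNAi the drp1 change differed in 2633 features (11.5%), 1052 more positive and 1581 more negative. The largest classes had a call with drp1 RNAi and none with sod2 RNAi, 912 features lower and 662 higher. Calls with egfp or opa1 RNAi did not enter these classes. Opposite calls made up 241 drp1 falls with sod2 rises and 27 the reverse. SMED30026240 was one of the former. It fell with drp1 RNAi from 13.9, 9.23 and 14.5 CPM to 6.01, 4.23 and 2.49 and rose with sod2 RNAi from 2.90, 2.72 and 3.57 to 9.18, 7.37 and 8.76, without overlap in either (difference -3.03, SE 0.39, edgeR adjusted p = 3.33e-06). SMED30002950 rose with drp1 RNAi from 0.274, 0.615 and 0.975 to 1.89, 2.54 and 2.41 and was 1.05 to 2.77 in the sod2 libraries (difference 2.12, SE 0.56, edgeR adjusted p = 0.0115). It was lost without drp1 homo replicate 1 (adjusted p = 0.0563).

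The other 2 features with extreme differences from sod2 RNAi depended on single libraries. SMED30026765 had 7.58, 5.54 and 47.2 CPM at homo and 7.08, 5.31 and 3.53 at 1dpa, and without homo replicate 3 its difference was -1.45 (edgeR adjusted p = 0.16, against -3.10 with it). In the sod2 libraries it had 4.98, 5.74 and 2.81 CPM at homo and 4.93, 5.67 and 19.2 at 1dpa, and without the last of these the difference was -2.18 (edgeR adjusted p = 0.0799). SMED30002990 was 0 in 2 homo and 2 of the 1dpa drp1 libraries, with 0.365 CPM in homo replicate 1 and 6.49 in 1dpa replicate 3, and without the latter the adjusted p was 1. In the sod2 libraries it had 9.52, 11.2 and 19.7 CPM at homo and 0 at 1dpa, and all of its 8 values above 0 in the whole-body libraries were fractions.

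Lists of features changed over 2-fold in other libraries were then read in the drp1 time change, beside the 16.1% higher and 16.2% lower and the median of 0.0254 among all features tested. The lists came from whole bodies with other RNAi and from tails with control dsRNA at later times against 0dpa, and earlier results of these data were known when they were chosen. They were not matched for level to all features tested. The share called ran from 7.04% in the lowest quartile by CPM to 60.3% in the highest. Of 307 features that rose over 2-fold in egfp controls, 189 (61.6%) rose with drp1 RNAi and 3 fell, with a median of 0.957 on the log2 scale against 1.30 in controls. The 3 were SMED30020097, SMED30025753 and SMED30032147, named after their values were seen. Of the 142 control falls, 54 (38.0%) fell with drp1 RNAi and 1 rose, SMED30035541, and the median was -0.595 against -1.32. A list chosen on control values must be large in controls, so the smaller drp1 medians alone do not show a smaller response.

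The opa1 lists were longer and asymmetric. Of 2876 features that rose over 2-fold with opa1 RNAi, 1113 (38.7%) rose with drp1 RNAi and 6 fell, with a median of 0.706. Of the 1183 opa1 falls, 737 (62.3%) fell with drp1 RNAi and 1, SMED30007040, rose. The falls list had a median of -0.685 with drp1 RNAi, -0.196 in controls and 0.0674 with sod2 RNAi, and 283 of its members were among the 662 features with a more negative change with drp1 RNAi than in controls, 23.9% of the list beside 2.89% of all features tested. The sod2 lists gave 173 rises and 39 falls among 411 features that rose with sod2 RNAi, and 0 rises and 56 falls (47.9%) among 117 that fell.

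Tails with control dsRNA at 2dpa gave lists of both directions. Of 684 features higher in control tails at 2dpa than at 0dpa, 304 (44.4%) rose in drp1 RNAi whole bodies and 10 fell, with a median of 0.512. Of 269 features lower in these tails, 169 (62.8%) fell and 3 rose, with a median of -0.708. The same falls list had medians of -0.387 in egfp, -0.839 in opa1 and -0.256 in sod2 RNAi whole bodies. The 3 exceptions, again named after the fact, were SMED30010682, SMED30022285 and SMED30029780. SMED30010682 rose with drp1 RNAi from 60.9, 66.7 and 65.7 CPM to 126, 124 and 129, and was called higher in controls, opa1 and sod2 RNAi as well.

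The lists of earlier times were not tested against those of 2dpa. The 375 features higher at 1dpa in control tails had 165 rises (44.0%), 9 falls and a median of 0.469. The 207 lower ones split into 51 rises (24.6%) and 62 falls (30%), both shares above those of all features, which are not matched for level. Their median was 0.00107, with quartiles of -0.663 and 0.637. At 6hpa (hours post amputation), the 2020 higher features had 708 rises (35.0%), 172 falls and a median of 0.265, and the 1865 lower ones 178 rises and 326 falls (17.5%, near the 16.2% of all features), with a median of -0.0763. Tail values come from a separately scaled table and are not compared in level with those of whole bodies.

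**Figure D5:**
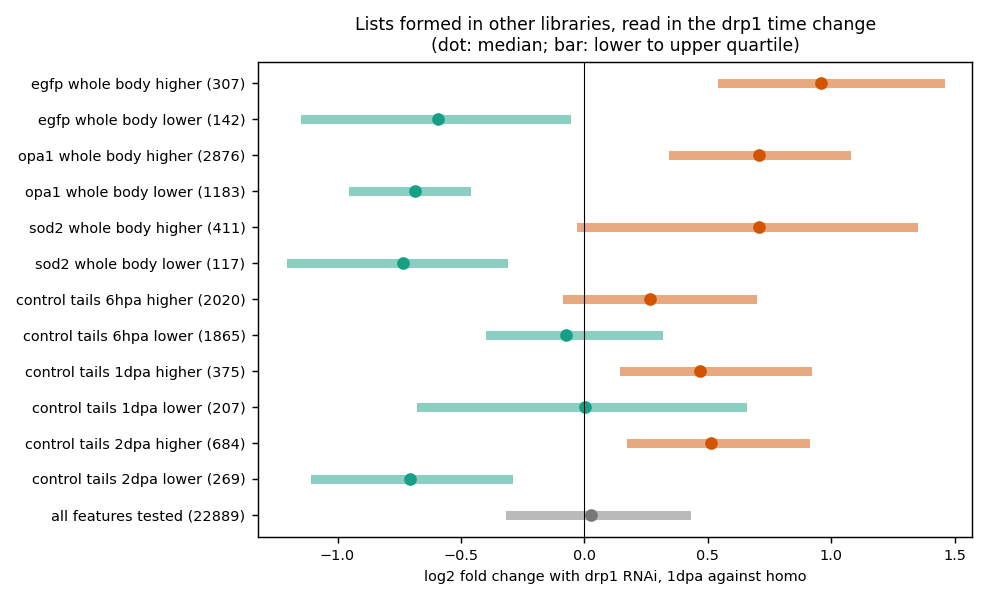
Log2 fold change from homo to 1dpa with drp1 RNAi for lists of features changed over 2-fold in other libraries, with list sizes in brackets, a dot at the median and a bar from the lower to the upper quartile of each list. Lists of rises are orange, lists of falls green and all features grey. The medians of the 2dpa tail lists lie on opposite sides of 0 (0.512 and -0.708). Those of the 6hpa and 1dpa tail falls lie near 0 (-0.0763 and 0.00107), with a wide bar for 1dpa (-0.663 to 0.637).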

How the data were processed

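By the name of the deposited table, the whole-body values came from kallisto. No version, index or genome build was found in the sources used here. The authors deposited estimated counts per feature for whole bodies, of which 89.8% to 91.5% of non-zero values per library were whole. They also deposited TPM values, used here for alternatives and for levels between features, and a tail table of signal values already scaled between libraries by a method that the labels do not state. Per the labels' protocols, 400 ng of total RNA went into each library. There were 0 per-sample columns left unused.

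Counts were rounded to whole numbers and fitted with edgeR 4.0.16 (TMM factors, filterByExpr, quasi-likelihood tests) over all 24 whole-body libraries with 8 group means, in R 4.3.3. This left 22889 of 36034 features. Differences between time changes were tested as interaction contrasts. A feature was called at a Benjamini-Hochberg adjusted p under 0.05. Tail lists came from limma 3.58.1 on log2(value + 1), where a minimum of 10 was reached in 3 libraries or more, called at the same threshold and changed over 2-fold. Limma was the test planned for the tails in case their table was scaled, and it was used because that table is not of counts. The tests were also run on simulated data with known changes in far fewer features than were called here. That run cannot show how they behave under the shift in composition between the times. Depth was 10611093 to 14328908 counts per library. The floor covers counting error only, while each SE comes from the edgeR fit and takes in the scatter between libraries. No 2 drp1 libraries of a group held the same values, and each pair differed by more than sampling noise (chi-square per degree of freedom 3.35 to 7.06).

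Named features were the 10 largest rises and falls with no overlap between times, the 5 most positive and negative differences from controls, the 5 most abundant called features in each direction by TPM, the 3 firmest opposite calls, the 2 most positive and negative differences from opa1 and from sod2 RNAi, and SMED30027152. A mean log2 CPM of at least 1 was required of the largest changes and differences. Members and lists were chosen with earlier results of these data known. Gene lists by name and cell type markers could not be used. Near-identical copies may share reads, so such features are uncertain. Alternatives were RLE and upper-quartile factors, other filters, DESeq2 1.42.0, fewer libraries, a replicate block, TPM with pseudocounts of 1 and 0.1, and leaving out each library.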

Additional observations from a re-analysis of the deposited data

Results flagged for a closer look

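Each result here is a change from homo to 1dpa that differed between drp1 RNAi and another RNAi by an interaction test in edgeR at an adjusted p under 0.05. Counts of such features were 897 against egfp controls, 1261 against opa1 RNAi and 2633 against sod2 RNAi. Values for single features are differences of log2 fold changes, drp1 RNAi minus the other, and except for opposite calls they are the extremes among features with a mean log2 CPM of at least 1.

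Against controls the change was more positive with drp1 RNAi for SMED30015120 (2.28), SMED30003738 (1.91), SMED30035236 (1.83), SMED30018088 (1.79) and SMED30029896 (1.68). It was more negative for SMED30021776 (-3.24), SMED30009224 (-3.16), SMED30008414 (-2.87), SMED30009757 (-2.17) and SMED30025753 (-2.17). Features called in opposite directions were SMED30003372 (-1.42), SMED30026531 (-1.28) and SMED30025110 (-0.97).

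Against opa1 RNAi the differences were 2.34 for SMED30007040, 2.01 for SMED30010932, -3.41 for SMED30018972 and -2.95 for SMED30025990. Against sod2 RNAi they were 2.12 for SMED30002950, -3.10 for SMED30026765 and -3.03 for SMED30026240. SMED30002990 had a fitted difference of 14.49, which is set by libraries at 0 and by 1 drp1 library, and is no measure of size.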

How the results depend on the processing

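The count of 7389 time changes with drp1 RNAi kept within 1.5 times under every alternative run (6424 to 9176), and was 5806 to 7094 with 1 library left out. The difference from controls was less steady. It counted 498 features when only the libraries compared were fitted, 2346 and 2525 on TPM with pseudocounts of 1 and 0.1, 238 on median-centred TPM (chosen after seeing the data) and 366 to 1440 with 1 library left out. The difference from opa1 RNAi was 484 to 2184 and that from sod2 RNAi 1783 to 2739 with 1 library left out. Features lower in both drp1 RNAi and controls were 384 and 386 on TPM, and features higher in both 839 on median-centred TPM. The median of the 6hpa tail falls was -0.0908 with RLE and -0.0826 with upper-quartile factors. Fits on fewer libraries have fewer degrees of freedom, but some of these counts were higher and some lower with 1 library left out. The cause of these shifts was not tested. No named feature reversed.

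Deviations of same-numbered homo and 1dpa libraries had correlations of 0.069, 0.0739 and -0.014 with drp1 RNAi. Between differing numbers they ran from -0.089 to 0.0279. With 3 libraries a group, such small values cannot decide whether the numbers pair libraries. With a replicate block the counts were 7437, 995, 1485 and 2684 for the time change and for the differences from egfp, opa1 and sod2 RNAi. DESeq2 gave 6952, 1093, 1685 and 2705. The share called was 7.04% in the lowest quartile of features by level and 60.3% in the highest. The part of depth in this was not tested.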
